A study of Mus musculus with 3 samples.

Results

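Complement components and regulators are represented here by 9 of the 24346 gene symbols of the deposited table of adult mouse lung endothelial cells (ECs). They were chosen by symbol: *C3*, *C4b*, *Cfb*, *Cfi*, *Cd55*, *Cd59a*, *Cd46*, *Serping1* and the receptor gene *C3ar1*, each with 1 row. The study profiled the vasculature of several organs, and the samples used here are 3 bulk RNA-seq libraries of 1 condition, named S38, S44 and S52. All 3 came from wild type C57BL/6J mice, taken from the lung and not cultured, and the study's methods give male animals of 6 to 8 weeks. ECs were labelled by an injected VE-cadherin antibody and sorted as CD31+, CD45- and Podoplanin- cells, a gate meant to leave out leukocytes and lymphatic ECs. Neither the labels nor the methods say how many animals entered a library or whether the libraries came from separate animals, so the spread between them may be technical. With 1 condition there was no contrast to test, and no p-value is given. All levels are FPKM, fragments scaled to transcript length and to the size of the library, a unit that divides by length and so allows genes to be set side by side within a library.

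Complement is a cascade of plasma proteins that tags surfaces for uptake, releases small inflammatory peptides and can assemble a pore in membranes. Its classical, lectin and alternative routes meet at C3, whose cleavage product C3b binds covalently to nearby surfaces. Cells in contact with blood carry regulators that break up the C3-cleaving enzymes (convertases), help a protease to inactivate C3b, or block the pore. The liver makes most plasma complement, while endothelial, epithelial, mesenchymal and myeloid cells also make several components.

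Endothelial markers were high in each library, beside high levels of some epithelial genes. The 10 endothelial markers were all at 1 FPKM or above in all 3 libraries, and their median was 482 FPKM in S38, 533 in S44 and 484 in S52 (the order used for every triplet of values that follows). *Cdh5*, the gene of VE-cadherin, was at 877, 978 and 908 FPKM, and *Ptprc*, the gene of CD45, was at 4.30, 2.06 and 0.434 FPKM. S52 stood apart in the markers of other cells. The summed level of the 7 alveolar type 2 markers was 3960, 3304 and 801 FPKM, mostly *Sftpc* at 3333, 2862 and 658 FPKM. The 5 airway markers summed to 2780, 2316 and 401 FPKM, mostly *Scgb1a1* at 2669, 2212 and 378 FPKM. In S38 and S44 both genes exceeded *Cldn5*, the highest endothelial marker there, at 1486 and 1732 FPKM. The sum of the 8 macrophage and monocyte markers was 1069, 811 and 184 FPKM. The median of the 4 platelet markers was 244, 216 and 9.11 FPKM. Most of the macrophage and monocyte sum was *Lyz2*, at 1047, 780 and 166 FPKM, so the sum mainly follows this 1 gene. The median of the 8 markers was 0.855, 0.657 and 0.381 FPKM. *Marco*, *Fcgr1* and *Ccr2* were listed at 0 in S52. *Adgre1* was also lower in S52, at 0.741, 0.572 and 0.124 FPKM. The remaining genes of that list differed less between S38 and S52: *Csf1r* was at 1.25, 1.85 and 1.30 FPKM, *Cd68* at 17.0, 27.4 and 16.7 FPKM and *Mrc1* at 0.877, 0.743 and 0.638 FPKM. Depth, estimated from the spacing of low values, was about 37600000, 38600000 and 34200000 fragments.

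The RefSeq table of promoters (GRCm38.p6) matched 5 of the 9 genes, namely *C3*, *Cd55*, *Cd59a*, *Cd46* and *C3ar1*. The 150 bases before the annotated start are printed for *C3*, the central component, with the match to a C/EBP motif in capitals (TTGCGNAA, searched on both strands). That motif was found in 142 of 32851 promoter windows of the same length (0.432%). In *C3* (chr17:57228137-57228286, minus strand) the match began 45 bases before the start.
C3: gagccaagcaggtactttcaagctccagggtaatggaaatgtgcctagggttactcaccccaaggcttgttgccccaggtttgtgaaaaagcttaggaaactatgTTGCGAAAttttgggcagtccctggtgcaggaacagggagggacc
For *Cd55* (chr1:130462745-130462894, minus strand) and its neighbouring copy *Cd55b* (chr1:130423044-130423193, minus strand) the same window is shown because the genes are alike in sequence and unlike in level. Capitals mark the longest stretch the pair shares, 24 bases. In an alignment with gaps, 118 bases were identical, 78.7% of the window length of 150.
Cd55: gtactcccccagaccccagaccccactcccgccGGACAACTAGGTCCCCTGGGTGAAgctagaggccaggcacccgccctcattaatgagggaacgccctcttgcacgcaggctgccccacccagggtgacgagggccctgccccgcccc
Cd55b: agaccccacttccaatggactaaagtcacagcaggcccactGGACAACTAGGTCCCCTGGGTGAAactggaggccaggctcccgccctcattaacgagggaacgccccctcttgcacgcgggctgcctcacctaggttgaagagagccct
A GC box (GGGCGG, both strands) lay in the windows of *Cd55*, *Cd55b* and *C3ar1* and in 28.6% of all windows. A STAT-type GAS motif (TTCNNNGAA, in 4.09% of windows) and a TATA box (TATAAA, in 7.57%) were found in none of the windows of these 5 members. A match of letters is a description of the sequence and does not show binding.

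The 9 genes spanned a wide range of levels, from the C1 inhibitor gene *Serping1* at a mean of 67.1 FPKM to the C3b-cleaving protease gene *Cfi* at 0.228 FPKM. Taking a mean of at least 1 FPKM as detected, 6 of the 9 passed, against 48.3% of all 24346 genes. At a mean of at least 10 FPKM there were 2 of 9, *Serping1* and *C3*, against 25.7% of all genes. The median of the 9 means was 4.79 FPKM, compared with 0.784 FPKM over all genes and 11.2 FPKM over the detected genes. As a group, the members thus lay above the median gene of the table and below the median detected gene. Within libraries the median member was at 4.48, 5.49 and 3.51 FPKM.

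**Figure D1:**
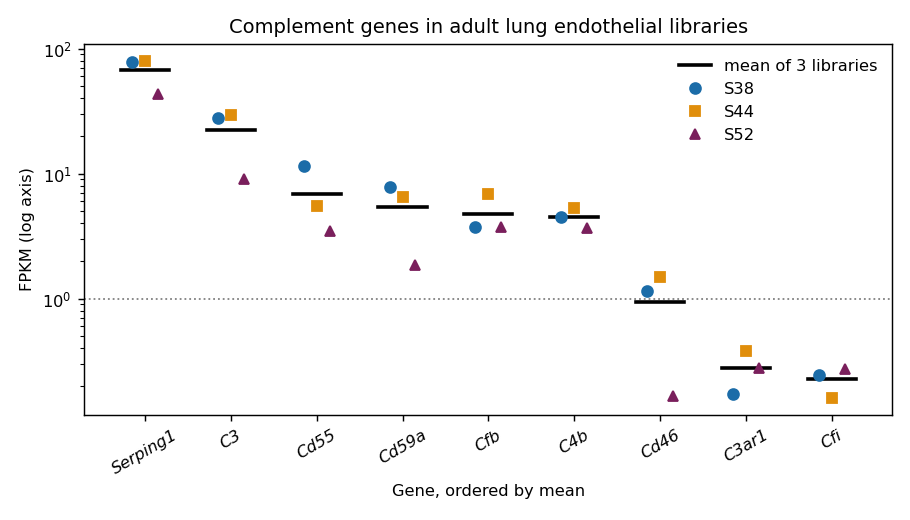
FPKM (log axis) of the 9 complement genes, ordered by mean, with 1 symbol per library, a bar at the mean of the 3 libraries and a dotted line at 1 FPKM. *Serping1* (43.6 to 80.0 FPKM) lay above all the others, S52 was the lowest library for the first 7 genes as deposited (not for *Cfb* after median ratio scaling), and *C3ar1* and *Cfi* stayed under 1 FPKM in every library.

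In the order of means, neighbours mostly overlapped. Of the 8 neighbouring pairs, 2 had ranges over the 3 libraries that did not overlap. These were *Serping1* over *C3*, whose lowest and highest libraries were at 43.6 and 29.7 FPKM, and *C4b* over *Cd46*, at 3.66 and 1.49 FPKM. *C3* was above *Cd55* inside each of the 3 libraries, although the lowest library for *C3* (9.15 FPKM) was under the highest for *Cd55* (11.5 FPKM). *Cd55*, *Cd59a*, *Cfb* and *C4b* had means of 6.83, 5.39, 4.79 and 4.48 FPKM and overlapped along the order, as did *Cd46*, *C3ar1* and *Cfi* below them.

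*C3*, the component on which all routes converge, lies on chromosome 17 (GRCm38 chr17:57203970-57228136, minus strand, 41 exons). It was at 27.7 FPKM in S38, 29.7 in S44 and 9.15 in S52, a mean of 22.2 ± 11.3 (SD, n = 3), above 85.1% of genes. As deposited, S38 and S44 were close to each other, and S52 differed from them by -1.50 and -1.60 on the scale of log2(FPKM + 1). The fold between the highest and the lowest library was 3.25. With every library set to the same sum, *C3* was at 24.0, 18.5 and 6.45.

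*C4b* encodes the C4 protein of the classical and lectin routes and lies at chr17:34728380-34743882 (minus strand). Its levels were 4.48, 5.28 and 3.66 FPKM, a mean of 4.48 ± 0.808 (SD, n = 3). This was the steadiest of the 6 detected members, with 1.44-fold between libraries. Its level is uncertain because of its near-identical copy *C4a*, which shares 34.6% of the 51-base windows of *C4b* (1842 of 5329), the length of the reads. *C4a* was listed at 0.314, 0.0835 and 0 FPKM, far under *C4b* in each library, and how fragments that fit both genes were assigned is not given in the sources used here. *C3* exceeded *C4b* by a ratio of 6.17, 5.63 and 2.50, and the gap was smallest in S52.

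*Cfb*, the protease of the alternative convertase, lies at chr17:34856374-34862518 (minus strand), next to *C2*, its counterpart in the classical convertase. It was at 3.78, 6.89 and 3.72 FPKM, a mean of 4.79 ± 1.81 (SD, n = 3). Here S44 was the high library, and S38 and S52 were almost equal. Another annotated gene, *Gm20547*, covers 6107 bases of *Cfb* on the same strand and has no row in the table. *C2* was lower than *Cfb* in all 3 libraries, at 2.78, 2.16 and 1.28 FPKM, and the coding pair shared no 51-base window.

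*Serping1* (chr2:84765387-84775444, minus strand, 8 exons) encodes the C1 inhibitor, a serpin that blocks C1r, C1s, the lectin-route proteases and plasma kallikrein. It was at 77.7 FPKM in S38, 80.0 in S44 and 43.6 in S52, a mean of 67.1 ± 20.4 (SD, n = 3), above 94.7% of genes. As deposited, S38 and S44 again lay together, and S52 differed from them by -0.82 and -0.86 on the log2(FPKM + 1) scale. With every library set to the same sum, *Serping1* was at 67.4, 49.9 and 30.7, so S44 lay between the others. Its targets in the classical route were also detected and were lower per length in each library. *C1ra* had a mean of 12.5 ± 1.25 FPKM and *C1s1* of 9.57 ± 1.41 FPKM (SD, n = 3). The ratio of inhibitor to protease was 7.05, 6.02 and 3.33 for *C1ra* and 7.15, 8.21 and 5.39 for *C1s1*. The inhibitor transcript exceeded both proteases in every library, by least in S52.

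*Cfi* (chr3:129835884-129875332, plus strand) encodes factor I, the protease that inactivates C3b and C4b with the help of cofactors. It was at 0.247, 0.161 and 0.276 FPKM, a mean of 0.228 ± 0.0602 (SD, n = 3), the lowest of the 9. At the estimated depth these values correspond to 18, 12 and 18 fragments, and their 95% Poisson intervals (0.147 to 0.392, 0.0833 to 0.282 and 0.163 to 0.436 FPKM) overlap, so no difference between libraries was detectable.

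*Cd55* (chr1:130439027-130462744, minus strand, 10 exons) encodes decay-accelerating factor, a lipid-anchored protein that breaks up C3 convertases. It was at 11.5 FPKM in S38, 5.49 in S44 and 3.51 in S52, a mean of 6.83 ± 4.15 (SD, n = 3). *Cd55* was the member for which S38 and S44 themselves differed by over 2-fold, 1 of 7 members that averaged 1 FPKM or more in that pair, where 5.06% of 11854 genes did so. *Cd55b*, whose upstream window is printed beside that of *Cd55*, was listed at 0 in all 3 libraries, and 3 fragments would have given 0.0661 to 0.0759 FPKM. In mouse *Cd55b* is known mainly from testis. The pair shared 326 of the 2483 windows of *Cd55* (13.1%), so part of the *Cd55* transcript cannot be told from the copy by a single read.

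*Cd59a* (chr2:104095801-104115354, plus strand) encodes the lipid-anchored inhibitor of the membrane attack complex. It was at 7.82 FPKM in S38, 6.47 in S44 and 1.87 in S52, a mean of 5.39 ± 3.12 (SD, n = 3). S52 differed from S38 by -1.62 and from S44 by -1.38 on the log2(FPKM + 1) scale, and the 4.19-fold range was the widest among the 6 detected members. Its neighbour *Cd59b*, known mainly from testis, was at 0.905, 2.75 and 0.737 FPKM, below *Cd59a* in each library. The 2 transcripts shared 3.82% of the *Cd59a* windows.

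*Cd46* (chr1:195036826-195092249, minus strand, 11 exons) encodes membrane cofactor protein, which in mouse is known mainly from testis. It was at 1.15 FPKM in S38, 1.49 in S44 and 0.167 in S52, a mean of 0.933 ± 0.685 (SD, n = 3), just under the detection level. These values correspond to about 264, 352 and 35 fragments. The 95% Poisson interval of S52, 0.117 to 0.233 FPKM, lay under those of S38 (1.01 to 1.29) and S44 (1.33 to 1.65), so its gap to them was larger than counting error. A noncoding gene on the opposite strand, *A330023F24Rik*, overlaps the end of *Cd46* by 1079 bases and was at 1.31, 1.37 and 0.484 FPKM. Because the libraries carry no strand information, fragments of the overlap cannot be told apart.

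*C3ar1* (chr6:122847138-122856161, minus strand) encodes the receptor for C3a, the peptide released from C3. It was at 0.172, 0.383 and 0.277 FPKM, a mean of 0.277 ± 0.106 (SD, n = 3), or about 27, 61 and 39 fragments. The intervals of S38 (0.114 to 0.251 FPKM) and S44 (0.291 to 0.489 FPKM) did not overlap, and that of S52 (0.196 to 0.377 FPKM) overlapped both. The C3 transcript was 161, 77.7 and 33.1 times as high per length as that of its peptide's receptor. *C3ar1* is known from myeloid cells, and in these libraries the median macrophage and monocyte marker was at 0.855, 0.657 and 0.381 FPKM, with 8 of 8 markers above 0 in S38 and S44 and 5 of 8 in S52. In bulk samples, fewer cells of a type and less RNA per cell cannot be told apart.

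**Figure D2:**
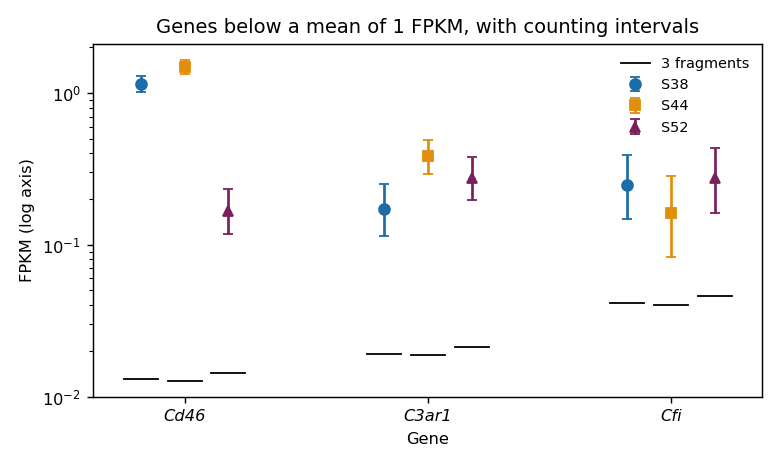
FPKM (log axis) of the 3 members with means under 1 FPKM, by library, with 95% Poisson intervals on the estimated fragments and a short bar at the level of 3 fragments. *Cd46* in S52 (0.167 FPKM) lay under its other libraries beyond the intervals, whereas the 3 intervals of *Cfi* overlapped.

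S52 was the lowest library for all 6 detected members as deposited, and for 5 of them, without *Cfb*, after scaling by the median ratio between libraries. Of the 11770 detected genes, 46.3% were lowest there as deposited. The share of detected genes was 42.0% after median ratio scaling. A range over 2-fold between the highest and lowest library was seen for 3 of the 6, *C3*, *Cd55* and *Cd59a*, and for 20.1% of the detected genes. Without S52 the count was 1, and with every library set to the same sum *Serping1* joined them at 2.19-fold. The log2 differences of S52 to S38 ran from -0.02 (*Cfb*) to -1.62 (*Cd59a*) among the 6. Several marker lists of other cells were lower in S52 as well, with a median log2 difference to S38 of -5.01 for platelet, -2.34 for alveolar type 2, -2.29 for airway and -2.21 for pan-leukocyte genes. The median of the endothelial list differed by 0.09, that of the lung capillary list by 0.34 and that of the fibroblast list by -0.36. Single endothelial markers moved both ways, from -0.68 (*Kdr*) to 0.77 (*Emcn*). Lung capillary markers ran from -0.91 (*Ednrb*) to 0.42 (*Gpihbp1*). The part of these other cells in the levels of *C3*, *Cd55*, *Cd59a*, *Cd46* and *Serping1* was not tested.

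**Figure D3:**
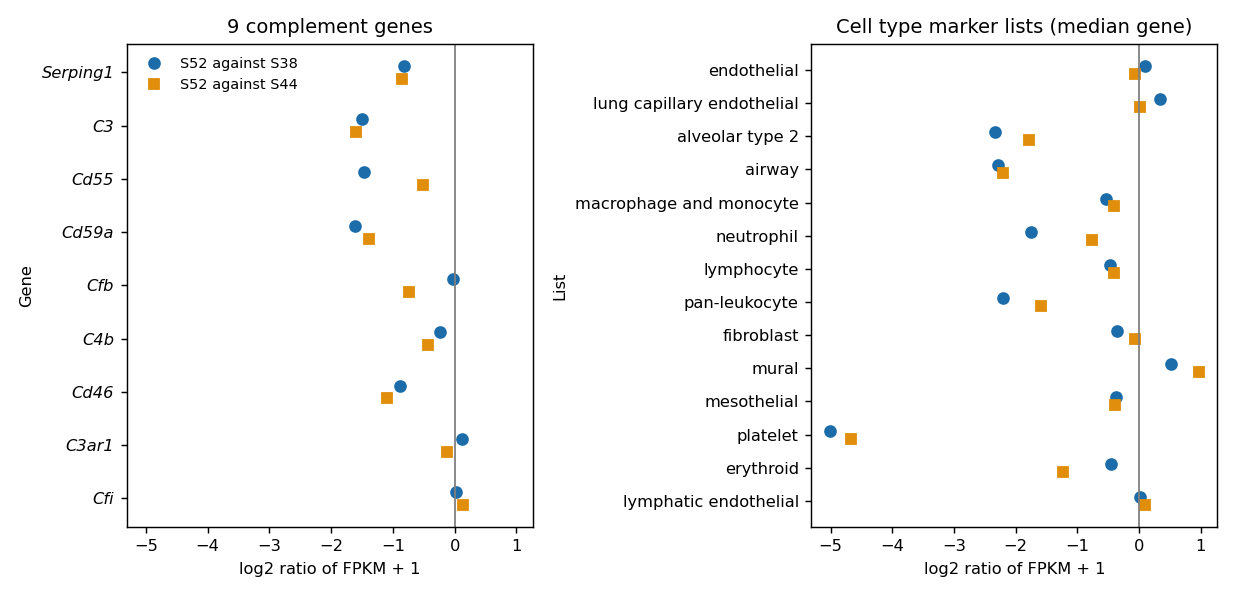
Differences of S52 from S38 (circles) and from S44 (squares) in log2(FPKM + 1), for the 9 complement genes on the left and for the median gene of each of 14 marker lists on the right. On this scale *Cd59a* and *C3* lay lowest among the complement genes against S38 (-1.62 and -1.50). The scale understates changes of low genes such as *Cd46*, which lay at -0.88 with 1.15 FPKM in S38 and 0.167 in S52. The platelet list lay at -5.01, and the endothelial list lay near 0 (0.09).

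The median mural marker was highest in S52 (6.11, 4.01 and 9.59 FPKM), while the mural sum was 120, 62.0 and 118 FPKM. Against S38, *Pdgfrb*, *Rgs5*, *Cspg4* and *Notch3* were higher in S52. *Acta2* (90.3, 46.7 and 79.7 FPKM) and *Myh11* (11.5, 4.72 and 10.5 FPKM) were lower. The lymphatic endothelial list had medians of 13.0, 12.8 and 11.4 FPKM. Within it, *Lyve1* was at 539, 597 and 390 FPKM and *Prox1* at 0.132, 0.173 and 0.598 FPKM. Medians of the neutrophil list were 2.62, 1.51 and 0.549 FPKM, those of the lymphocyte list 0.974, 0.812 and 0.200 FPKM, and those of the erythroid list 75.9, 80.3 and 1.78 FPKM. The erythroid genes were unequal, with log2 differences of S52 to S38 of -7.54 for *Hbb-bs*, -0.69 for *Hba-a1* and -0.24 for *Alas2*. Of the 5 mesothelial markers, 4 were listed at 0 in S52.

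A wider list of 57 complement genes was used to place the 9 members, of which 56 had a row. Of these 56 genes, 27 were detected, 11 reached a mean of 10 FPKM and 4 a mean of 100 FPKM, while 10 were listed at 0 in all libraries. Over all genes 48.3% were detected and 25.7% reached 10 FPKM, so the list was detected in about the same share as genes in general. The 4 highest were regulators and a receptor of the vessel surface or fluid phase, none of them a cascade component. *Thbd*, thrombomodulin, which also promotes inactivation of C3b, had a mean of 818 ± 344 FPKM. *Clu*, clusterin, a fluid-phase inhibitor of the terminal complex, had 400 ± 115 FPKM. *Cd93*, an endothelial surface protein once described as a C1q receptor, had 307 ± 55.9 FPKM, and *Cr1l*, also called Crry, the broadly expressed rodent membrane regulator, had 117 ± 13.6 FPKM (SD, n = 3 for each).

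**Figure D4:**
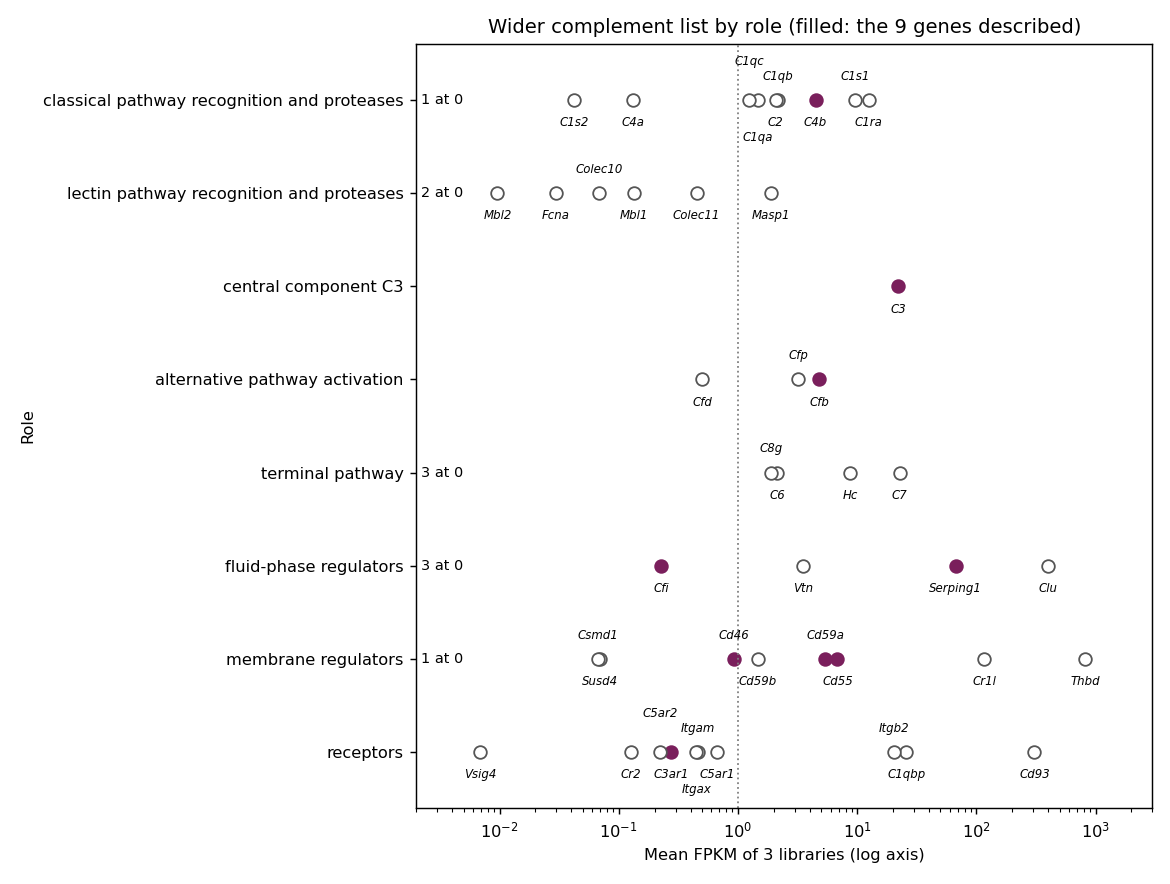
Mean FPKM of 3 libraries (log axis) for the genes of the wider complement list shown, in 8 roles, with the 9 members filled, a dotted line at 1 FPKM and the number of genes listed at 0 at the left. *Thbd* (818 FPKM), *Clu* (400 FPKM), *Cd93* (307 FPKM) and *Cr1l* (117 FPKM) lay furthest to the right, and 1 of 8 lectin-route genes passed 1 FPKM.

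Among membrane regulators of C3 convertases, *Cr1l* was far above the members of the same role. Its level was 121, 128 and 102 FPKM, a range of 1.26-fold. Its ratio to *Cd55* was 10.6, 23.3 and 29.0, and that to *Cd46* was 106, 86.2 and 610. *Cr1l* lies next to *Cd46* on chromosome 1, and their GENCODE transcripts shared no window of read length. In RefSeq the genes of the pair overlap by 74 bases, more than the 51 bases of a read, and the annotation behind the FPKM values is not given in the sources used here. The order *Cr1l*, *Cd55*, *Cd46* held in each of the 3 libraries, with ranges that did not overlap.

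In the fluid phase, *Clu* and *Serping1* kept a nearly fixed ratio of 6.06, 5.78 and 6.13. Both were lower in S52. *Vtn*, vitronectin, another inhibitor of the terminal complex, was detected at 3.50 ± 1.49 FPKM (SD, n = 3) and was highest in S52. *C4bp*, a cofactor for the cleavage of C4b, was listed at 0 in all 3 libraries.

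Of the classical route, 7 of 10 genes were detected. The 3 chains of C1q were each above 1 FPKM in S38 and S44 and close to 0 in S52. *C1qa* was at 1.51, 2.87 and 0.0318 FPKM, *C1qb* at 2.06, 4.38 and 0.0975 FPKM, and *C1qc* at 2.05, 1.64 and 0.0656 FPKM. C1q is made chiefly by macrophages. The macrophage and monocyte list had a median difference of S52 to S38 of -0.53 in log2(FPKM + 1), which understates changes of low genes. It ran from -2.65 for *Lyz2* to 0.03 for *Csf1r*, with *Adgre1* at -0.63. On the FPKM scale *Adgre1* ranged 5.99-fold, and *Marco*, *Fcgr1* and *Ccr2* were listed at 0 in S52. *Csf1r*, *Cd68* and *Mrc1* ranged 1.48-fold, 1.64-fold and 1.38-fold. The part of these cells in the C1q values was not tested. *C1ra* and *C1s1*, the proteases that C1q activates, did not share this pattern, with 1.20-fold and 1.35-fold between libraries. Of the lectin route, 1 of 8 genes was detected, *Masp1*, at 1.50, 2.91 and 1.29 FPKM. For the recognition molecules *Mbl1*, *Mbl2*, *Fcna*, *Fcnb*, *Colec10* and *Colec11* the means were under 1 FPKM.

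In the alternative route, *Cfp*, properdin, which stabilises the convertase that contains factor B, was at 4.68, 3.47 and 1.46 FPKM, and *Cfd*, the protease that cleaves factor B, had a mean of 0.499 FPKM. *Cfb* was therefore the highest by mean of the 3 genes of this role. Of the terminal pathway, 4 of 7 genes were detected. *C7* had 22.7 ± 3.96 FPKM, *C8g* 1.90 ± 0.398 FPKM (SD, n = 3 for both) and *C6* 3.71, 1.27 and 1.41 FPKM. *Hc*, the gene of C5, was at 15.7, 7.93 and 2.58 FPKM, below *C3* in each library with a ratio of 1.77, 3.75 and 3.55. *C8a*, *C8b* and *C9* were listed at 0 in all libraries, so transcripts for some parts of the pore were not seen at this depth, where 3 fragments of *C9* would give 0.0409 to 0.0467 FPKM.

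Among receptors, 3 of 10 genes were detected. *Cd93* and *C1qbp* (25.9 ± 6.06 FPKM, SD, n = 3) were present in all libraries, while *Itgb2*, the shared chain of the leukocyte integrins, was at 32.9, 26.3 and 1.71 FPKM. Its complement-binding partners *Itgam* and *Itgax* had means of 0.458 and 0.447 FPKM. The receptors of C5a, *C5ar1* and *C5ar2*, had means of 0.669 and 0.223 FPKM, and *Cr2* was at 0.0609, 0.317 and 0 FPKM. Receptors for both cascade peptides were thus under 1 FPKM by mean, as *C3ar1* was. Over the wider list, 15 of the 27 detected genes ranged over 2-fold between libraries, beside 20.1% of all detected genes, and 21 were lowest in S52, beside 46.3%.

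The genes with the most similar pattern over the 3 libraries were sought for each member among 5992 or 5993 genes that averaged 10 FPKM or more, by the Euclidean distance between centred log2(FPKM + 1) values. For *C3* they were *Gpc3*, *Rasa4* and *Gnpnat1*, at distances of 0.041, 0.066 and 0.079, and 4 genes lay within 0.1. *Cd55* had none within 0.1, and its nearest were *Zbtb8os*, *Krt18* and *Krt8*, at 0.111, 0.142 and 0.172. The keratin genes were at 24.9, 13.7 and 9.75 FPKM (*Krt18*) and at 19.6, 11.4 and 7.62 FPKM (*Krt8*). *Serping1* was nearest to *Plekho2*, *Pde8b* and *Pear1*, with 52 genes within 0.1, and *Cd59a* to *Arhgap18*, *Abtb1* and *Mmd*, with 6. *Cfb* was nearest to *AI413582*, *Cd68* and *Zfp46*, with 12 genes within 0.1. *C4b* followed *Ap1b1*, *Icam2* and *Ubr1*, with 277 genes within 0.1, so its pattern was a common one. *Cd46* was nearest to *Acyp2*, *Scgb3a1* and *Sdr39u1*, with 25 genes within 0.1. The pseudocount of 1 narrows the *Cd46* pattern, as its FPKM ranged 8.89-fold while *Acyp2* was at 32.5, 37.4 and 17.0 FPKM. For the lowest members, *C3ar1* (374 genes) and *Cfi* (515 genes), the pseudocount of 1 makes the pattern almost flat. Over 3 libraries such likeness is a description only, and 7 of these 27 neighbours were kept with a pseudocount of 0.1.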

How the data were processed

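Bulk RNA-seq of 3 adult lung EC libraries (S38, S44, S52) was made with poly-A selection, without strand information, as 51 bp paired-end reads. FPKM values for each gene symbol, on mm10, were deposited by the authors. The submitters' processing notes name bcl2fastq 2.17, FastQC 0.11.5, Trimmomatic 0.36, TopHat2 2.1.0 and Cufflinks 2.2.1 without roles, while the study's methods describe STAR and HTSeq counts. The tool behind the FPKM values and its gene annotation are not given in the sources used here. All per-sample columns were used (0 left out).

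Values were read as deposited. Means, SDs, ranges and folds used the FPKM scale, and differences used log2(FPKM + 1), which understates changes of low genes. A mean of at least 1 FPKM counted as detected. FPKM are not counts, so no count model was fitted, and with 1 group no test was run. The 9 members, the wider list and the 14 marker lists were chosen with earlier results of these data known. The text names the members, genes of the wider list with a mean of at least 1 FPKM, paralogues, *Hc*, *C9*, *Cr2*, marker genes, overlapping genes and the 3 genes most like each member. Other genes of the wider list under 1 FPKM were named after their values were seen. Some members of that list enter its counts but are not reported here by name.

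Depth was estimated from low values of 7077 genes for which GENCODE M21 has 1 basic transcript, 800 to 4000 bp long. This method was adopted once the values were known. The fragment number and length correction (150 to 170 bp) were sought that make FPKM times length a whole number, and 77.1% to 79.0% of the low values came within 0.15 of one. In 9 simulated runs, which repeated the same depths for each library, the largest error was 0.38%. The runs were built from whole counts, so this error need not hold for the deposited values. On this estimate 1 FPKM of a 2000 bp transcript is 62.6 to 71.4 fragments. Intervals and the floor of 3 fragments cover counting error only. Positions are GENCODE M21 (GRCm38), and promoters are RefSeq. Alternatives were other library scalings, thresholds, pseudocounts and leaving out each library. Python 3.11.15, pandas 2.3.3, numpy 2.4.6, scipy 1.17.1, biopython 1.88 and matplotlib 3.10.9 were used.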

Additional observations from a re-analysis of the deposited data

How the results depend on the processing

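With a threshold of 10 FPKM, 2 of 9 members and 11 of 56 listed genes passed, against 6 and 27 at 1 FPKM, and 9 and 39 at 0.1 FPKM. With every library set to sum to 1000000, the result was a median member of 3.40 (4.79 FPKM as deposited) and a *C4b* mean of 3.25 (4.48 FPKM). The deposited sums were 1.15, 1.60 and 1.42 times 1000000, so this setting lowers every level and that direction was fixed in advance. Leaving out 1 library gave 2 to 4 separated neighbours in the order of levels, 4 without S38 and 4 without S52, against 2 with all libraries, and fewer libraries make ranges narrower. It gave 1 to 3 members with over 2-fold between libraries, 1 without S52, against 3 with all libraries. The median lung capillary marker was 662 FPKM without S52. With a pseudocount of 0.1, 7 of the 27 most alike genes were kept, and the cause was not tested. The count of members lowest in S52, examined after seeing the data, was 6 as deposited and after rescaling to a common sum, and 5 with median ratio scaling. The share of all detected genes lowest there was 46.3%, 40.1% and 42.0% in these settings. The member means moved by less than 1 SD in 17 of 18 rescaled values. With a library left out it was 27 of 27, a result fixed in advance. Leaving out 1 of 3 values cannot move a mean by 1 SD, so it says nothing about stability. No paired analysis was possible because there was 1 group only. Depth limits *Cfi* and *C3ar1*, at 12 to 61 estimated fragments, and a sum of FPKM that ranged from 1153890 to 1603596 limits comparison of levels between libraries.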
